A study of Rattus norvegicus with 19 samples.

Results

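The aquaporins Aqp1, Aqp3, Aqp4, Aqp5, Aqp7, Aqp8, Aqp9 and Aqp11 were followed in rat mammary gland and mammary carcinoma. They were chosen as every array probe whose RefSeq accession maps to one of these 8 genes, which gave 10 of the 18005 probes with a gene symbol and 8 of the 12789 genes tested. All 8 had a probe well above background on at least 6 arrays, the condition for being tested. RNA was measured on single-colour microarrays, 1 per sample, in 6 normal mammary glands and 13 mammary carcinomas. All animals were female and of F1 Sprague-Dawley and Copenhagen hybrid background, and the series title calls the carcinomas radiation-induced. At the age of 7 weeks the rats had either no treatment or whole-body 137Cs gamma rays, 4 Gy given at 0.5 Gy/min. Which of the normal glands are from irradiated rats is not in the labels, nor how old the rats were at sampling, nor that each sample came from a different rat, so p-values measure the spread between these samples. The comparison sets tumour against gland, and an effect of irradiation cannot be told apart within it.

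Aquaporins are membrane channels that let water cross cells along an osmotic gradient. The aquaglyceroporins among them, Aqp3, Aqp7 and Aqp9, also pass glycerol, and Aqp7 is the channel through which fat cells release the glycerol of broken-down triglyceride. Aqp1 is the water channel of blood vessel endothelium and red blood cells, Aqp5 lies at the apical face of secretory epithelia, and Aqp3 is best known from the basolateral face of epithelia. Aqp4 is the water channel of astrocytes and skeletal muscle, Aqp8 passes water and ammonia, and Aqp11 is an intracellular member of the family.

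Values below are log2 intensities minus the 75th percentile of the same array, so that 0 is the 75th percentile and a step of 1 is a doubling. They place samples of one gene in order and do not rank one gene's level against another's. Carcinoma arrays were brighter, with a 75th percentile of 485 to 1428 intensity units against 295.5 to 673 in normal glands. Of the 3 slides, slide 1 carried 3 normal glands with 4 carcinomas, slide 2 carried 2 with 4 and slide 3 carried 1 with 5. The scan day of slide 2 differs from that of slides 1 and 3. Normal gland 6 and carcinomas 11, 12 and 13, all on slide 3, carry a letter code in their descriptions, and the other 15 samples carry a number.

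Of the 8 aquaporins, 4 were lower in carcinomas (Aqp1, Aqp3, Aqp4 and Aqp7), 0 were higher and 4 did not pass the limma test at an adjusted p of 0.05. Over all genes tested, 23.0% passed, 13.2% as lower and 9.73% as higher. At an unadjusted p under 0.05, 1 of the 8 was higher (Aqp5), against 16.4% of all genes tested, and 5 were lower, against 19.1%. In Aqp1, Aqp3 and Aqp7 every carcinoma lay below every normal gland, a pattern found in 1.93% of all genes, while groups without overlap in either direction made up 2.47%. The median change over all genes tested was 0.01. The names fat, vessel and epithelium were set against marker lists. Fat and vessel markers fell with Aqp7 and Aqp1, while Aqp3 fell and no luminal epithelial marker was called lower. Aqp5 had no relation that passed with the luminal score across the carcinomas (r = 0.367, permutation p = 0.213, adjusted 0.639). Of 17 luminal markers, 16 were well above background in all 13 carcinomas, which shows epithelial RNA there and ties no aquaporin to it.

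The sequences just upstream of Aqp1, Aqp3 and Aqp5 are shown because Aqp1 and Aqp3 fell in every carcinoma while Aqp5 did not fall. Each is the 250 bases before the RefSeq gene start in rat build GRCr8, 5′ to 3′ on the gene's own strand. Aqp1 lies at chr4:85812534-85812783 on the plus strand, Aqp3 at chr5:61040684-61040933 on the minus strand and Aqp5 at chr7:132601278-132601527 on the plus strand. Capitals mark matches to GGGCGG (the GC box), TATAAA (the TATA box), CACGTG (an E-box) and AGGTCA (a nuclear receptor core site), searched on both strands, so CCGCCC is a GC box on the other strand. No marked match overlaps another.
Aqp1: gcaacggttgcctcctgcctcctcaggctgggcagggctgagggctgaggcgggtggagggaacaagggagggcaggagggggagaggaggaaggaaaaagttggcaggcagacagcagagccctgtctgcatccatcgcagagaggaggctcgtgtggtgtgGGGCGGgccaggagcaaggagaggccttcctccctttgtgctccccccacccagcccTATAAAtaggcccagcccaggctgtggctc
Aqp3: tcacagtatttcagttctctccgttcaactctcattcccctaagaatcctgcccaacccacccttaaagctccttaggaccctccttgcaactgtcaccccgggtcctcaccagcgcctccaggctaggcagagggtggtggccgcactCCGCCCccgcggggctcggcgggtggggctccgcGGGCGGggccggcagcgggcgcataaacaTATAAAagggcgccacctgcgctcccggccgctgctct
Aqp5: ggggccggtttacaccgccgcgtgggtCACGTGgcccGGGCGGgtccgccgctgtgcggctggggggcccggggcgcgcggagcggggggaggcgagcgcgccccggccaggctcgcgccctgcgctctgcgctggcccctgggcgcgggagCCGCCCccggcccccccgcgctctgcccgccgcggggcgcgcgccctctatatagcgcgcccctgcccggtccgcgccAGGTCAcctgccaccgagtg
Aqp1 and Aqp3, at 65.2% G and C each, both carry TATAAA close to the start, at -30 and -38, with a GC box further up. The Aqp5 stretch is 83.2% G and C and holds GC boxes, CACGTG and AGGTCA, with no exact TATAAA. Only exact letters were searched, and the Aqp5 stretch holds an unmarked TATATA, so it is not shown to lack a TATA-like site. The median over 33469 RefSeq rat promoter stretches of this length was 51.2% G and C. Of those stretches, 30.5% hold GGGCGG, 12.9% TATAAA, 5.6% CACGTG and 14.1% AGGTCA. Of the 8 genes, 7 were matched to a promoter entry and Aqp7 was not. Aqp4, also called lower, had no TATAAA, and neither had Aqp8, Aqp9 or Aqp11, so TATAAA does not follow the calls. The matches describe the letters only.

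Aqp7, the glycerol channel of fat cells, was lower in every carcinoma and near background in most. Its values in normal glands 1 to 6 were 1.00, 0.22, -0.43, -0.53, -0.53 and 1.24. In carcinomas the lowest was -8.07, the median -7.15 and the highest -5.51. Every carcinoma lay far below every normal gland, and the probe was well above background on 6 of 6 normal gland arrays but only on those of carcinomas 4 and 12 among the 13. The change was -7.15 ± 0.37 (SE, n = 13 and 6; limma adjusted p = 4.98e-11). The condition of 6 arrays was met by the normal glands alone, so Aqp7 was tested only because of the group where it is high. With no filter on dim probes the change was again -7.15 and passed (limma adjusted p = 4.66e-11). On slides 1, 2 and 3 alone it was -7.70, -5.57 and -8.57. Since most carcinoma values are near background, the size depends on the background correction: with normexp it was -4.07, and the call remained.

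Aqp3, which passes glycerol and water, read 0.65, 2.20, 0.84, 1.50, 0.40 and 0.70 in normal glands 1 to 6. In carcinomas it ranged from -7.55 to -2.49 with a median of -3.88, and no carcinoma reached a normal gland. The change was -5.69 ± 0.63 (limma adjusted p = 3.36e-06), or -4.09 with normexp. The carcinomas fell into separate sets by slide, a split noticed after the values were seen. The 4 carcinomas of slide 2 (numbers 4, 6, 7 and 9) read -7.55 to -6.11 and were not well above background, while the 9 of slides 1 and 3 read -4.46 to -2.49 and all were. The normal glands of slide 2 did not stand apart, at 1.50 and 0.40. Of the 13 adipocyte genes measured, none had all carcinomas of slide 2 below all the others, and 6 had a lower mean there. Adipoq, the adiponectin gene, went the way of Aqp3: it was well above background in 0 of the 4 carcinomas of slide 2 and 8 of the 9 others, with a mean of -7.21 against -5.13. Lep was well above background in 0 of 4 and 4 of 9, and Rbp4 in 1 of 4 and 6 of 9. The adipocyte genes not counted in the 6 had a higher mean in the carcinomas of slide 2 than in the others. Their differences ran from 0.05 in Lep to 1.07 in Lipe, and the Aqp7 reading was also higher there, by 1.28. Aqp7 was well above background in only 1 of the 4 and 1 of the 9, so its difference compares readings near background. The dimmest detected signal was -6.67 to -5.56 on the arrays of the 4 and -7.95 to -6.61 on those of the 9. The Aqp7 difference is therefore not read as more RNA. The part of the slide in this split was not tested. Carcinoma minus normal gland for Aqp3 was -4.97, -7.73 and -4.35 within slides 1, 2 and 3.

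**Figure D1:**
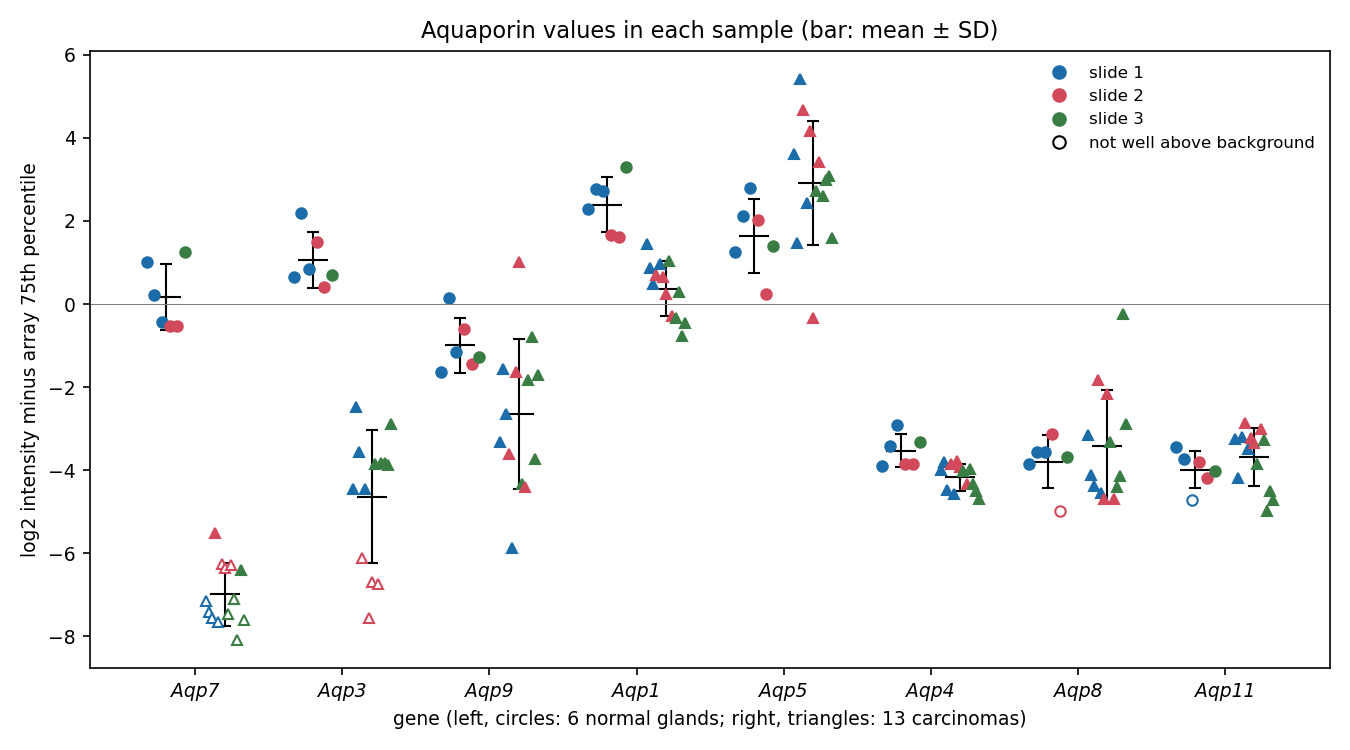
Values of the 8 aquaporins (log2 intensity minus the array's 75th percentile) in 6 normal glands (circles) and 13 carcinomas (triangles), coloured by slide, open where not well above background, with bars for mean ± SD; heights of different genes are not comparable. Aqp7, Aqp3 and Aqp1 show no overlap between groups, and the open Aqp3 triangles at -7.55 to -6.11 are the 4 carcinomas of slide 2.

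Fat cell genes fell in the same samples. All 13 measured adipocyte markers were lower in carcinomas, with a median change of -6.65, led by adiponectin, Adipoq (-10.26), and the retinol carrier Rbp4 (-9.84). Adipoq was well above background in 8 of the 13 carcinomas and Rbp4 in 7, so the sizes of these falls rest partly on values near background. The list score, the mean of its genes after centring each, was 3.36 to 4.46 in normal glands and -2.96 to -1.37 in carcinomas. Fewer fat cells and less RNA per fat cell cannot be told apart in whole tissue. Within arrays, the change of Aqp7 minus that of the adipocyte score was -1.45 (exact permutation p = 0.00133, 0.00265 after adjustment over 4 such differences), but with normexp it was 0.54 (adjusted exact permutation p = 0.0236). The direction of this difference therefore depends on the background correction. Across the 13 carcinomas Aqp7 and the adipocyte score had r = 0.15 (permutation p = 0.643, adjusted 0.819) and rho = -0.115 (permutation p = 0.71), with r = -0.333 after omitting the carcinomas farthest from the median. No relation could be shown there, where most Aqp7 values are near background.

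Aqp3 fell as the fat cell genes did, while no luminal epithelial gene was called lower. Genes of milk-secreting epithelium had a negative median change too (-2.80, with 2 of 10 called lower), and endothelial and macrophage genes also fell. Aqp3 was tested against the luminal list only, so its fall is not shown to be particular to fat. Measured within arrays, the change of Aqp3 minus that of the luminal epithelium list was -6.35 (exact permutation p = 3.69e-05, the smallest that 27132 splits can give, adjusted 0.000147), with 13 of 13 carcinomas below all normal glands. Aqp3 alone already separated the groups (-5.69, against 0.66 for the list), so this p largely restates its fall. Of 17 luminal genes, 5 were higher, 0 were lower and 12 did not pass, with a median change of 0.58. Among those that passed, the largest rises were in the transcription factor gene Gata3 (1.60) and the membrane protein gene Prom1 (1.43). The genes most like Aqp3 over all 19 samples were the sterol-sensing receptor Nr1h3 (r = 0.935), Adipoq (0.931) and the fat hormone gene Retn (0.922). For Aqp7 they were Akr1c15 (0.978), the peroxisomal transporter Abcd2 (0.977) and the carboxypeptidase Cpa1 (0.975). These r values span 19 samples of 2 groups that differ, which raises r for any gene pair that differs with them.

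In the 9 carcinomas of slides 1 and 3, chosen after the slide split was seen, Aqp3 and the luminal score had r = -0.575 (exact permutation p = 0.109) and rho = -0.40 (exact p = 0.291), and r was 0.31 without the 2 farthest. Aqp3 and Aqp5 there had r = -0.43 (exact permutation p = 0.248) and rho = -0.35 (exact p = 0.359), and r was -0.736 without the 2 farthest. Neither relation passed. The 4 carcinomas of slide 2 are too few for a value of their own, and a value over all 13 is not read as a relation because the slides form separate clusters.

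**Figure D2:**
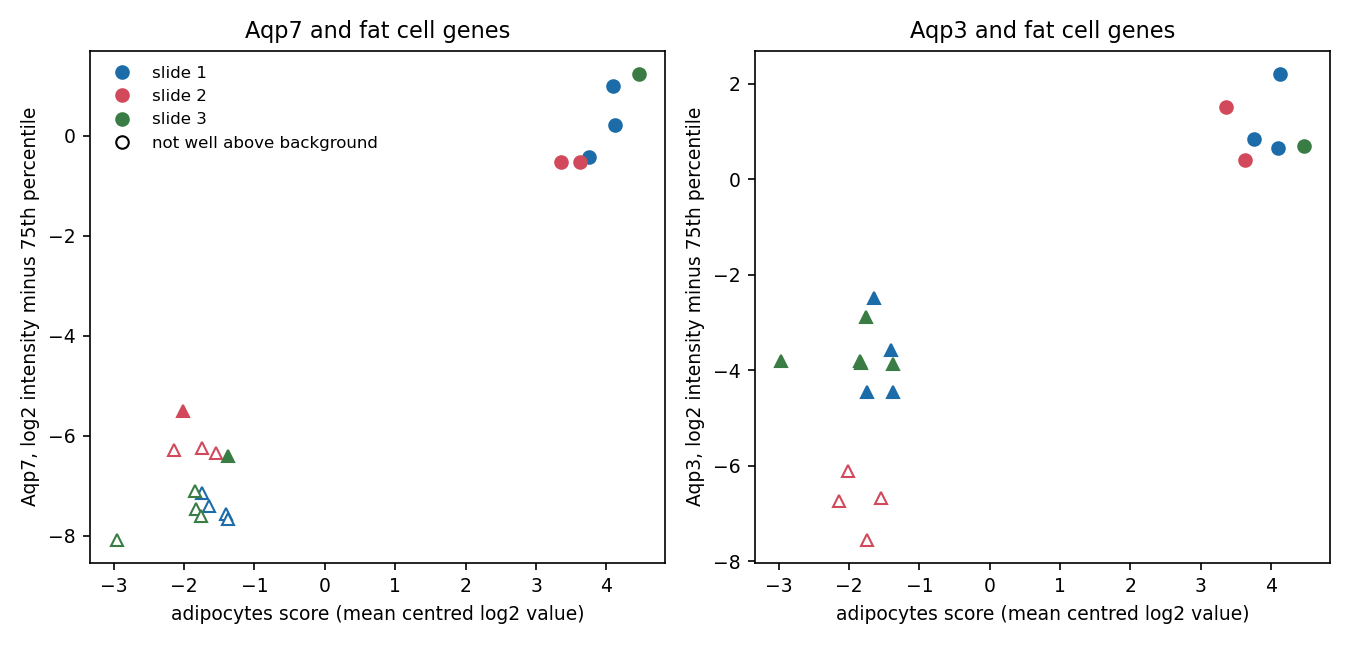
Aqp7 and Aqp3 (log2 intensity minus the array's 75th percentile) against the adipocyte list score (mean centred log2 value of 13 genes) in 6 normal glands (circles) and 13 carcinomas (triangles), coloured by slide and open where not well above background. Normal glands sit at scores of 3.36 to 4.46 and carcinomas at -2.96 to -1.37, with no sample between, and the carcinomas of slide 2 are lowest for Aqp3.

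Aqp7 and Aqp3 are next to each other among the protein-coding genes of rat chromosome 5 in GRCr8, and no tested neighbour of this pair was called lower. Nfx1, a zinc finger gene on the Aqp7 side, changed by 0.04 and Chmp5, an endosomal sorting gene, by 0.06. On the Aqp3 side, the ubiquitin-conjugating enzyme gene Ube2r2 changed by -0.20, with limma adjusted p = 0.452, and Ubap2, 1 gene further, rose by 1.00 (limma adjusted p = 0.0131). Nfx1 and Chmp5 did not pass either, and Nol6 was not tested. The order of genes was looked at after their values were seen. Around other aquaporins some neighbours were called lower: Inmt, 2 genes from Aqp1 (-3.47, limma adjusted p = 6.6e-05), and Aamdc, 3 genes from Aqp11 (-1.355, 0.00376). Others were called higher: Pak1 beside Aqp11 (1.49, limma adjusted p = 0.00442), Aldh1a2 beside Aqp9 (1.98, 0.0309) and Bcdin3d, 3 genes from Aqp5 (0.88, 0.00105).

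Aqp9, the glycerol channel known best from liver and from neutrophils, had the largest SD of the 8 between tumours (1.81, against 0.66 between normal glands). It read -1.64, 0.15, -1.15, -0.61, -1.44 and -1.28 in normal glands 1 to 6. In carcinomas it ran from -5.86 in carcinoma 5 through a median of -2.65 to 1.02 in carcinoma 7, with 10 of 13 below the lowest normal gland and 1 above the highest. The change of -1.65 ± 0.71 did not pass (limma adjusted p = 0.097). The outcome depended on the setting: without carcinoma 7 the change was -1.96 (limma adjusted p = 0.0216) and with normexp -1.25 (0.0414), but with array brightness as a covariate it was -0.17 (0.956). Normexp moved the median of all genes to -0.37 and called 5256 of 12789 genes lower, so the pass of Aqp9 there came with a general shift. The array of carcinoma 7 stood apart, with a 75th percentile of 485 intensity units against 866 to 1428 in the other carcinomas and 62.3% of spots well above background against 72.0 to 84.2%. Its basal epithelial score was -2.82 against -0.17 to 1.23, and the part of these differences in Aqp9 was not tested. Carcinoma 7 also held the highest score for milk-secreting epithelium, 3.37 against 1.82 to 2.78 in normal glands, and carcinoma 5 the lowest, -9.14. Of 11 neutrophil genes 3 were lower and 8 did not pass, and of 10 macrophage genes 7 were lower. The neutrophil score was 0.28 to 1.47 in normal glands and -1.97 to 2.16 in carcinomas, and the part of these cells in Aqp9 was not tested. Over the 13 carcinomas the genes most like Aqp9 were Agfg1 (r = 0.895), the endocytic adaptor Dab2 (0.887) and R3hdm4 (0.887).

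Other genes of glycerol and triglyceride handling fell with Aqp7 and Aqp3. Of 22 measured, 15 were lower, 1 was higher and 6 did not pass, with a median change of -2.20. The enzymes that free glycerol from triglyceride were all lower: Pnpla2 (-3.02 ± 0.31), Lipe (-2.36 ± 0.40) and Mgll (-3.04 ± 0.46). Gpd1, which makes glycerol 3-phosphate in the cytosol, changed by -3.77, and the fat cell regulator Pparg by -4.22. The largest falls were in Pck1 (-7.48), an enzyme of glycerol synthesis in fat, and in the lipid droplet gene Cidec (-6.65). Glycerol kinase, Gk, which captures glycerol that has entered a cell, changed by -1.01 ± 0.54 and did not pass (limma adjusted p = 0.189). Gpd2, the mitochondrial glycerol 3-phosphate dehydrogenase, was the 1 gene that rose (1.38 ± 0.28, limma adjusted p = 0.00209). Cidec, Lipe, Pparg, Lpl, Slc2a4 and Cebpa also stand in the adipocyte list, so the lists are not independent.

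**Figure D3:**
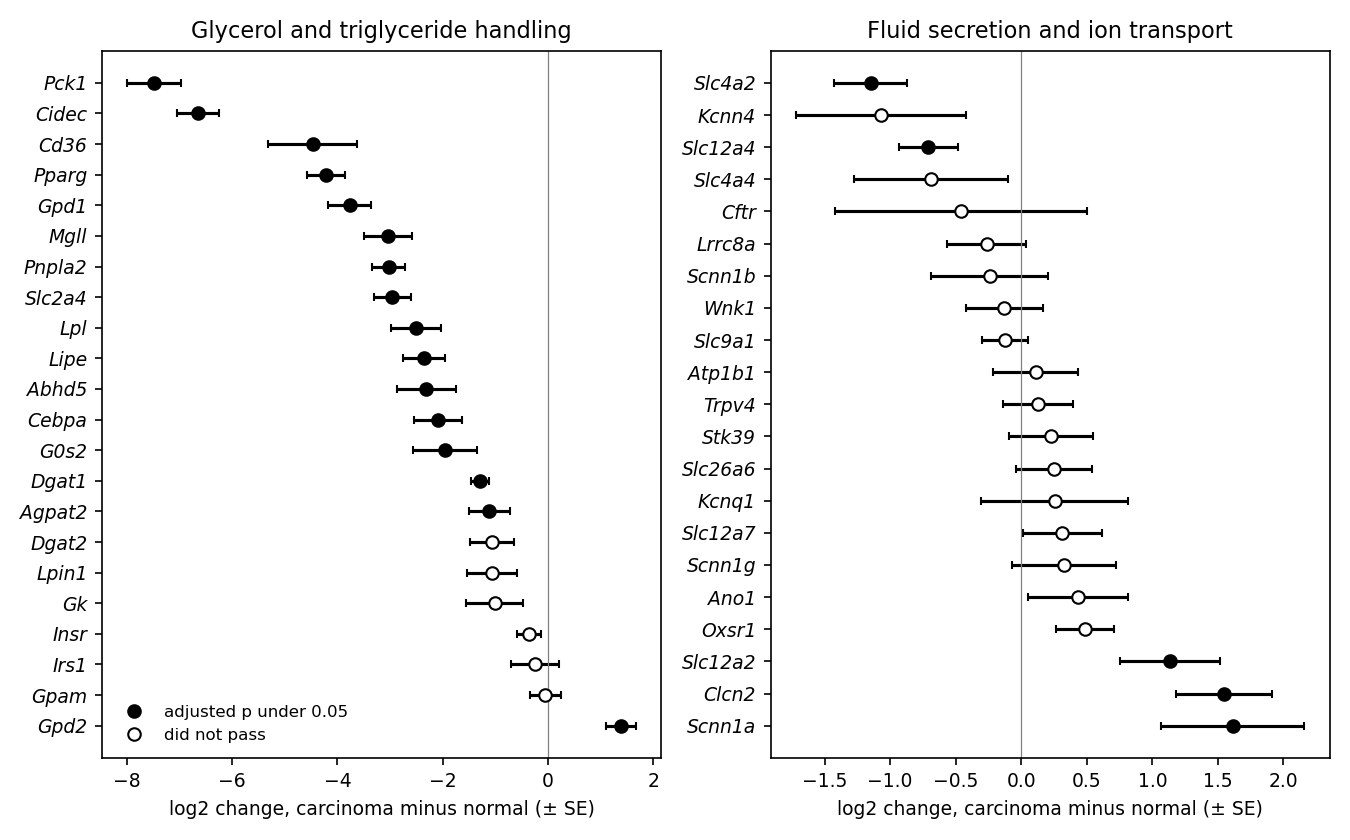
Log2 change, carcinoma minus normal gland, ± SE for 22 genes of glycerol and triglyceride handling and 21 of fluid secretion and ion transport (6 normal glands, 13 carcinomas), filled where the limma adjusted p was under 0.05; the Clcn2 value is near background in all 6 normal glands. In the first list 15 genes were lower and 1, Gpd2, was higher, while in the second 3 were higher and 2 lower.

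Aqp1, the water channel of vessel walls and red cells, was lower in every carcinoma. It read 2.28, 2.76, 2.71, 1.67, 1.61 and 3.29 in normal glands 1 to 6. In carcinomas the lowest was -0.78, the median 0.47 and the highest 1.45, and the probe was well above background on all 19 arrays. The change was -2.01 ± 0.31 (limma adjusted p = 0.000165), a 4.04-fold difference of intensities scaled to their own array. It was -1.64, -1.31 and -3.33 within slides 1, 2 and 3, where it passed on slide 1 alone (adjusted p = 0.0886 on slide 2 and 0.169 on slide 3). With array brightness, which differed between the groups, as a covariate, the change was -1.97 and did not pass (adjusted p = 0.0869).

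Endothelial genes fell too: 9 of 11 were lower and 2 did not pass, with a median change of -1.51, led by the tight junction gene Cldn5 (-3.24) and the adhesion gene Pecam1 (-2.33). Of 8 red blood cell genes, 5 were lower, with a median change of -2.54. The endothelial score was 0.38 to 1.87 in normal glands and -1.28 to 0.15 in carcinomas, the red cell score -0.08 to 2.96 and -2.53 to 0.74. Within arrays, the change of Aqp1 minus that of the endothelial score was -0.41, which did not pass (exact permutation p = 0.093, adjusted 0.124) unless normal gland 5 was left out (-0.56, adjusted exact permutation p = 0.0325).

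Among the tumours, Aqp1 and the endothelial score went together. Over 13 carcinomas r was 0.758 (permutation p = 0.00277, adjusted over 6 relations 0.0166) and rho 0.835 (permutation p = 0.00068, adjusted 0.00408), and r was 0.67 without the 2 carcinomas farthest from the median score. Carcinomas 1 and 2 had the highest scores and lay high in Aqp1, and carcinomas 9 and 13 had the lowest scores. In several alternatives r stayed positive and its adjusted p did not pass. It was 0.611 after centring each slide (adjusted permutation p = 0.158), 0.594 with normexp (adjusted 0.102) and 0.758 in the 10 number-coded carcinomas (adjusted 0.0608). It was 0.709 without carcinoma 1 (adjusted permutation p = 0.0602) and 0.713 without carcinoma 13 (adjusted 0.0562). Each slide held 4 or 5 carcinomas, too few for a value within it. The genes most like Aqp1 over these tumours were the matrix gene Egflam (0.861), the endothelial transcription factor Sox18 (0.833) and the endothelial surface gene Emcn (0.828), which is also in the list. They are the highest of 11256 genes over 13 samples, a choice that raises r. For the other aquaporins sought this way the highest r was 0.829 to 0.959.

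**Figure D4:**
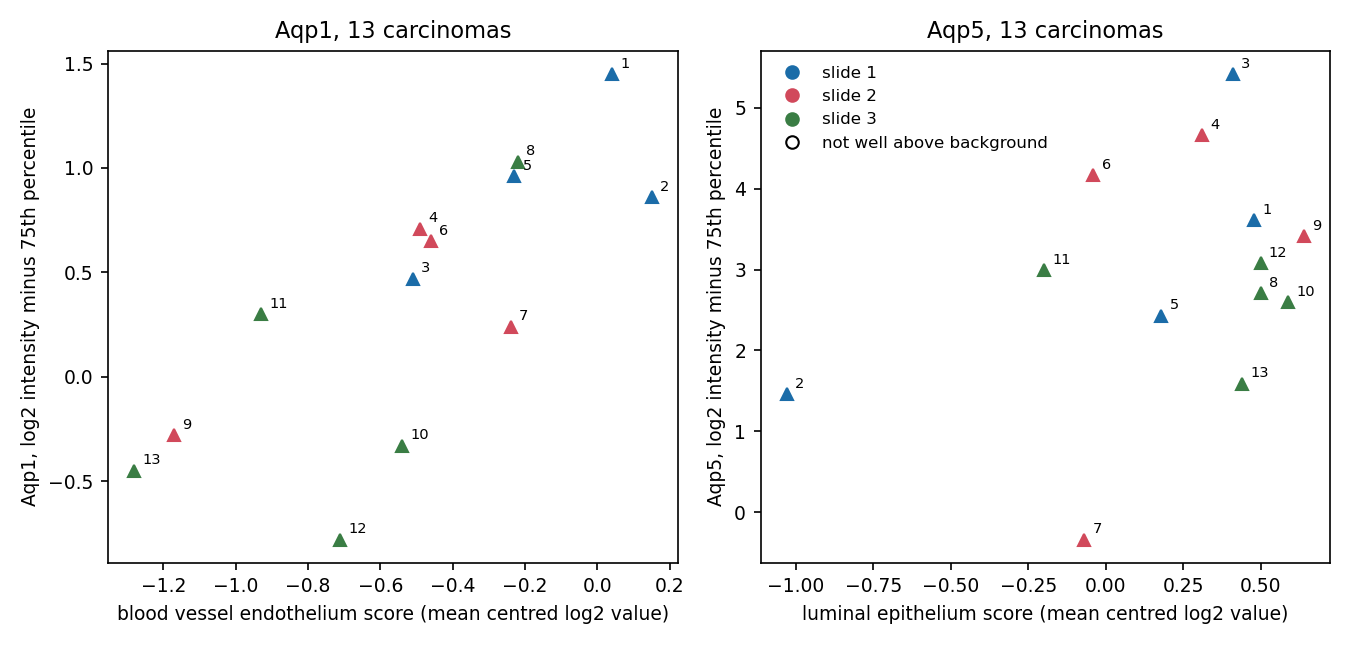
Aqp1 against the endothelial list score and Aqp5 against the luminal list score in 13 carcinomas (axes: log2 intensity minus the array's 75th percentile, and mean centred log2 value of the list; numbers are the carcinomas, colours the slides). Aqp1 is higher where the endothelial score is higher (r = 0.758), whereas Aqp5 and the luminal score had r = 0.367, and carcinoma 7 is lowest for Aqp5.

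Aqp5, the apical water channel of secretory epithelium, had the highest mean change of the 8 without passing the test. Normal glands 1 to 6 read 1.25, 2.11, 2.80, 2.01, 0.23 and 1.39. Carcinomas ran from -0.34 in carcinoma 7 through a median of 2.99 to 5.42 in carcinoma 3, and 7 of 13 lay above the highest normal gland. The change was 1.27 ± 0.60 (limma adjusted p = 0.136), and it was 1.18, 1.86 and 1.20 within slides 1, 2 and 3. Without carcinoma 7, whose array stood apart, the change was 1.54 and passed (limma adjusted p = 0.0286), and with array brightness as a covariate it was 0.40 and did not (0.872). Against the luminal epithelium list within arrays, Aqp5 changed by 0.61 more (exact permutation p = 0.331), and 5 of 13 carcinomas lay above all normal glands. Over the 13 carcinomas, Aqp5 had r = 0.367 with the luminal score (permutation p = 0.213, adjusted 0.639, rho = 0.264, permutation p = 0.385). With the milk-secreting score, r was -0.0496 (permutation p = 0.866, rho = 0.0604, permutation p = 0.85). Omitting the carcinomas farthest from the median gave 0.278 and -0.254. Carcinoma 7, highest in the milk score at 3.37, was lowest in Aqp5. The genes most like Aqp5 were the ubiquitin ligase gene Rnf180 (0.915), the trafficking gene Rab15 (0.911) and Enpp5 (0.888).

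Aqp5 stands between Aqp2 and Aqp6 in the genome, and no change was called in either. Aqp2, the kidney collecting duct channel, changed by -0.29 (limma adjusted p = 0.228), and Aqp6 was well above background in 1 normal gland and 0 carcinomas and was not tested. Beyond Aqp6, the cytokinesis gene Racgap1 rose by 1.63 (limma adjusted p = 0.0132).

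Most genes of fluid secretion and ion transport did not pass the test. Of 21 measured, 3 were higher, 2 were lower and 16 did not pass, with a median change of 0.13. Scnn1a, a subunit of the epithelial sodium channel, rose by 1.61 ± 0.55. The chloride channel gene Clcn2 was well above background on 12 carcinoma arrays and 0 normal gland arrays, so it was tested only because of the carcinomas. It was at least 2.07-fold higher (limma adjusted p = 0.00532), a bound set by the dimmest detected signal on each normal gland array. Slc12a2, the cotransporter that loads secretory cells with chloride, rose by 1.14 ± 0.38. The falls were in the anion exchanger Slc4a2 (-1.15 ± 0.28) and the potassium-chloride cotransporter Slc12a4 (-0.71 ± 0.22). Cftr, the chloride channel of many secretory epithelia, changed by -0.46 ± 0.96, and Trpv4, a cation channel opened by swelling, by 0.13 ± 0.27, and neither passed.

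Aqp4 passed the test narrowly and on 1 of its 3 probes. The probe tested, the brightest, read -3.90, -3.42, -2.90, -3.84, -3.84 and -3.31 in normal glands 1 to 6 and -4.69 to -3.78 in carcinomas, with a median of -4.03, and 10 of 13 carcinomas lay below the lowest normal gland. The change was -0.64 ± 0.21 (limma adjusted p = 0.0311), a 1.55-fold difference of intensities scaled to their own array. Before that scaling, the probe read 32.2 to 46.5 intensity units in normal glands and 32.2 to 85.4 in carcinomas. The unscaled values therefore did not fall, and the call is relative to the brightness of each array. The other probes gave -1.01 ± 0.60 (adjusted p over all probes 0.243) and 0.31 ± 0.60 (0.754), and were well above background on 9 of 19 arrays each. The call was lost when the 3 probes were averaged (-0.44, adjusted p = 0.495), within each slide (-0.80, -0.13 and -0.99), in the number-coded samples (-0.49, adjusted p = 0.102) and without normal gland 2 (-0.61, 0.0716), 3 (-0.51, 0.110) or 6 (-0.59, 0.0574). With array brightness as a covariate the change was 0.0034. Normal gland 3, the highest in Aqp4, also had a skeletal muscle score of 6.83 against -1.40 to 1.37 in the other normal glands. Of 11 muscle genes 0 passed the limma test (1 was lower at an unadjusted p under 0.05), and the part of muscle in Aqp4 was not tested. The genes most like Aqp4 over the carcinomas were Gsdmdl1 (0.898), the amino acid sensing gene Castor2 (0.876) and Lrrc43 (0.87).

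Aqp8 was above all normal glands in 4 tumours and within their range in the rest, a range whose low end is a gland not well above background. Normal glands 1 to 6 read -3.84, -3.56, -3.55, -3.12, -4.98 and -3.69, of which normal gland 5 was not well above background. Carcinomas ran from -4.70 to -0.23 with a median of -4.11, which is below every normal gland but number 5. Carcinoma 12 at -0.23, carcinoma 4 at -1.82, carcinoma 7 at -2.17 and carcinoma 13 at -2.88 lay above all normal glands. The change of 0.37 ± 0.55 did not pass (limma adjusted p = 0.676), and its sign turned within slide 1 (-0.39) and with normexp (-0.26). Normexp moved the median of all genes to -0.37. The genes most like it over the carcinomas were the lysosomal gene Cln3 (0.829), Tmsb4x (0.825) and the kinase gene Fes (0.821).

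Aqp11, the intracellular member, split the carcinomas by the code of their samples. Normal glands 1 to 6 read -3.45, -3.74, -4.72, -3.80, -4.18 and -4.03, of which normal gland 3 was not well above background. The letter-coded carcinomas 11, 12 and 13 read -4.98, -4.50 and -4.71 and were the lowest of the 13, whose median was -3.35 and whose highest was -2.86. The letter-coded normal gland 6, at -4.03, was inside the range of the other normal glands. Of the 13 carcinomas, 7 lay above the highest normal gland. The change of 0.30 ± 0.31 did not pass (limma adjusted p = 0.52), and its sign turned within slide 3 (-0.23) and with normexp (-0.45), a correction that moved the median of all genes to -0.37. In the number-coded samples alone the change was 0.61 and did not pass (limma adjusted p = 0.0776). The genes most like Aqp11 were Imp4 (0.959), a ribosome assembly gene, the chaperone Hsp90ab1 (0.955) and the phosphatase gene Pgp (0.952). What the sample codes stand for is not given in the labels, and their part in this split was not tested.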

How the data were processed

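Each of 19 samples was hybridised to 1 single-colour array. The scanner software was Agilent Feature Extraction 10.7.3.1, per the submitters' processing notes. The deposited scanner files give a background-subtracted intensity and quality flags per spot, per the file headers. The authors also deposited a log2 table, which followed the scanner values and was used as an alternative. How that table was scaled was not given in the sources used here.

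Control spots were removed, leaving 58717 spots of 30367 probes. Intensity was put on the log2 scale and reduced by the array's 75th percentile, flagged spots were set missing, and spots of a probe were averaged. Detection (well above background) required a share of 0.5 or more of a probe's spots, and probes detected on fewer than 6 arrays were dropped. Accessions gave 18005 probes a symbol through RefSeq genes of GRCr8, 12362 had none, and the probe with the highest mean stood for a gene. No spot of an aquaporin was saturated. The number of arrays limits the precision.

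limma 3.58.1 in R 4.3.3 compared the groups with moderated variances that follow intensity, 2-sided, with Benjamini-Hochberg adjustment over 12789 genes and a threshold of 0.05. In simulated data of this comparison (12703 genes), 37 of 100 genes changed by 1 (log2) and 88 of 100 changed by 2 were recovered, with 11 false calls. List scores average the centred log2 values of a list. Differences between an aquaporin and a list used a 2-sided exact permutation test, and correlations 100000 permutations (scipy 1.17.1, Python 3.11.15). Alternatives were the authors' table, normexp background correction (offset 50, on median signals), quantile scaling, other filters, probe averaging, slide, sample code, array brightness, replicate number and each sample left out. Chosen after seeing the data were normexp without offset and the relations of Aqp3 on slides 1 and 3.

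The genes named are all 8 aquaporins, 9 preset pathway genes, the largest changes of each list used, and the 3 genes most like each aquaporin. These were sought over the 13 carcinomas among 11256 genes well above background on at least 10 of them, or over 19 samples among 12703 genes for Aqp3 and Aqp7. Neighbouring genes on the chromosome were added after values were seen. The members and all lists were chosen with earlier results of these data known. A further gene of the ion transport list is not reported here and was left out of that list's counts.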

Additional observations from a re-analysis of the deposited data

How the results depend on the processing

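Aqp3 and Aqp7 remained lower and past the limma threshold in every alternative that could test them, from -4.09 to -7.80 and from -4.07 to -8.57; Aqp7 had no probe left when 13 detected arrays were required. Over all genes, 1244 were higher and 1692 lower; normexp gave 5256 lower. Within slides 1, 2 and 3 the counts were 153 and 534, 45 and 267, and 0 and 31 (limma; 1154 genes on slide 3 had an unadjusted p under 0.05, either direction), and 2 aquaporins were lower on slide 2 and on slide 3. With array brightness as a covariate 11 genes were higher and 174 lower, with 2 aquaporins lower, Aqp4 at 0.0034, Aqp5 at 0.40 and Aqp9 at -0.17. Leaving out each sample gave 665 to 1442 higher and 1084 to 1830 lower, with 0 to 1 aquaporins higher and 3 to 5 lower; the fewest calls came without normal gland 3 (665 and 1084) and 2 (697 and 1120). For replicate numbers shared by a normal gland and a carcinoma, deviations from the group means correlated at -0.115 to 0.238. Of 6 normal glands, 1 correlated best with its own number. A gland and a tumour of the same rat need not deviate alike, so these values cannot exclude a pairing, which the labels do not give. With the replicate number as a block, 1 aquaporin was higher (Aqp5, 1.99, adjusted p = 0.0156), Aqp9 passed (-2.12, 0.0177) and Aqp4 did not (-0.55, 0.222). Sign turned for Aqp8 with normexp (-0.26) and within slide 1 (-0.39), and for Aqp11 with normexp (-0.45) and within slide 3 (-0.23). The difference of Aqp7 and the adipocyte list turned from -1.45 to 0.54 with normexp, and was -1.59 to -1.32 with samples left out; that of Aqp1 and endothelium was -0.56 to -0.26. The r of Aqp1 and endothelium no longer passed with normexp (0.594), in number-coded samples (0.758) or with slides centred (0.611), and was 0.709 to 0.808 with carcinomas left out. Relations that never passed changed sign: Aqp7 with adipocytes in number-coded samples (-0.622) and with carcinomas left out (-0.419 to 0.303), and Aqp5 with milk-secreting epithelium with slides centred (0.0178) or carcinomas left out (-0.166 to 0.30). Over all 13 carcinomas, whose slides form separate clusters, Aqp3 had r = -0.148 with luminal epithelium (-0.29 to 0.339 with carcinomas left out) and -0.126 with Aqp5 (-0.542 to 0.0173), values not read as relations. Without an offset, normexp gave -5.06 for Aqp3 and -5.77 for Aqp7 (chosen after seeing the data).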

Other observations

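Of the other aquaporin genes with a probe, 3 of 4 could be tested and none passed the limma test at an adjusted p of 0.05, with 1 of them, Mip, lower at an unadjusted p under 0.05. Mip, the lens fibre channel, was -3.87 ± 0.58 (SD, n = 6) in normal glands and -4.54 ± 0.52 (SD, n = 13) in carcinomas, a change of -0.67 (limma adjusted p = 0.0849). Aqp12a, a channel of pancreatic acinar cells, changed by 0.04 (limma adjusted p = 0.96).

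Among the basal and myoepithelial genes, 1 of 12 was higher and 11 did not pass. Of 10 genes of milk-secreting epithelium, 2 were lower and 8 did not pass, with a median change of -2.80 and a score that ran from -9.14 to 3.37 in carcinomas.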
